A study of Oryctolagus cuniculus with 8 samples.

Results

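The 8 keratin genes described here, KRT3, KRT4, KRT12, KRT13, KRT15, KRT17, KRT78 and KRT80, are keratins of the stratified epithelia of cornea, limbus and conjunctiva and of related stratified epithelia. They were found by an exact match of the gene name in the deposited table, 8 of 20922 gene entries. The match used no values, but these keratins and the gene lists below were chosen with earlier results of these data known. The table also holds 29 other keratin entries with a complete name. The samples are total RNA of limbal epithelial cells from New Zealand white rabbits weighing at least 2.5 kg, sequenced on an Ion Proton instrument. Cells stained with the DNA dye Hoechst 33342 were sorted into side population (SP) cells, a class defined by low dye content, and the remaining non-side population (NSP) cells, with 4 libraries of each. The sort rests on the dye, and the labels name no antibody, no treatment and no age. No label ties a library to an animal, so each p-value refers to the scatter among these libraries, part or all of which may be technical.

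Keratins are the intermediate filament proteins of epithelial cells. An acidic type I keratin (here KRT12, KRT13, KRT15 and KRT17) pairs with a basic type II keratin (here KRT3, KRT4, KRT78 and KRT80), and the filaments are anchored at desmosomes and hemidesmosomes. Which pair a cell makes follows the kind of epithelium and the layer, so that keratins serve as markers on the ocular surface. Where cornea meets conjunctiva lies the limbus, which holds the stem cells of the corneal epithelium in its basal layer. The pair KRT3 and KRT12 is known from corneal epithelium, the pair KRT4 and KRT13 from moist, non-keratinised epithelia such as conjunctiva and oesophagus, and KRT15 from basal cells of the limbus. KRT5 and KRT14, the common pair of basal cells, are not among the keratin entries with a complete name and were not analysed here.

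Exon reads summed to between 15553295 and 18931836 in the SP libraries and between 20445565 and 23529101 in the NSP libraries. Libraries are numbered in the order of the table's columns, which name the group and no sample. Levels are given as CPM (reads of a gene scaled to a common library total), with library totals scaled by TMM factors of 0.926 to 1.14. The SP libraries also carried RNA of genes that mark other cell types, whose summed levels stand beside the keratin results below.

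Of the 8 keratins, 6 were lower in SP than in NSP libraries, namely KRT15, KRT3, KRT12, KRT13, KRT17 and KRT4, and 0 were higher. KRT78 and KRT80 did not pass the test. The test was limma-voom over all 10004 genes that passed the filter on low counts, at a Benjamini-Hochberg adjusted p of 0.05, and all 8 keratins were tested. Its log2 fold changes compare mean log2 levels and are not the log2 ratio of the arithmetic means in CPM. Over all tested genes, 13.3% were called lower in SP and 17.5% higher, a split of 1330 lower and 1754 higher genes that turned to 1650 lower and 1405 higher with upper-quartile factors. The median log2 fold change of the 8 keratins, SP over NSP, was -2.43, against 0.11 over all tested genes. For 5 of the 8 keratins every SP library lay below every NSP library, which held for 14.2% of all tested genes. In bulk samples, fewer cells of a type and less RNA per cell cannot be told apart.

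**Figure D1:**
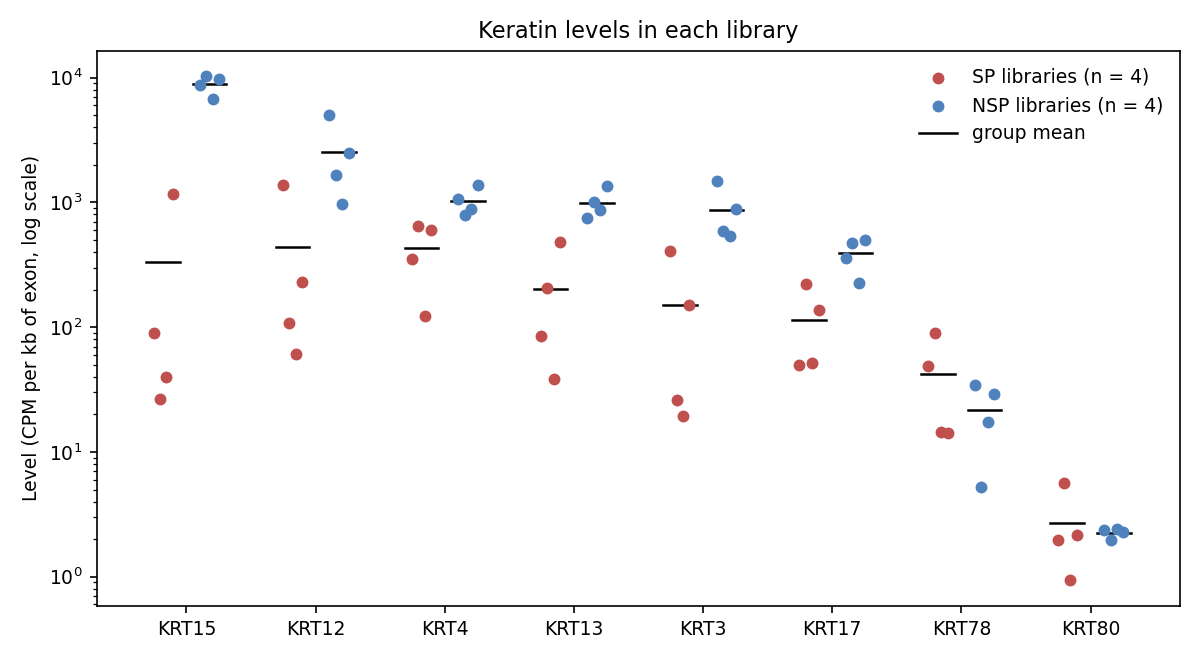
Level of each keratin in each library, in CPM per kilobase of exon on a log scale, with SP libraries left of NSP libraries (n = 4 each) and the arithmetic group mean as a line. KRT15 shows the widest gap, with SP libraries up to 44.7-fold apart and NSP libraries within 1.54-fold, while the KRT78 and KRT80 points of both groups overlap.

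KRT3, the type II keratin of the corneal pair, stood at 905.8, 58.51, 43.33 and 338.4 CPM in SP libraries 1 to 4, against 3340, 1306, 1197 and 1977 CPM in NSP libraries 1 to 4. Every SP library was below every NSP library, and SP library 1 came closest to the NSP range. The arithmetic means were 336.5 ± 403.0 CPM in SP and 1955 ± 985.7 CPM in NSP (SD, n = 4 each). The fitted log2 fold change of KRT3 was -3.43 ± 0.87 (SE, limma-voom adjusted p = 0.0135). KRT12, its type I partner, stood at 3798, 298.6, 167.7 and 642.3 CPM in SP libraries 1 to 4, against 14020, 4586, 2683 and 6926 CPM in NSP libraries 1 to 4. Here the groups overlapped, since SP library 1 was above NSP library 3 and the other SP libraries were below all NSP libraries. KRT12 averaged 1227 ± 1726 CPM in SP and 7053 ± 4956 CPM in NSP (SD, n = 4 each), with a log2 fold change of -3.31 ± 0.87 (SE; limma-voom adjusted p = 0.016). Single SP libraries moved both values by more than 1.5-fold and ended neither call. Without SP library 1 the log2 fold change was -4.27 for KRT3 and -4.2 for KRT12, and without SP library 3 it was -2.77 for KRT3 and -2.71 for KRT12. When voom weighted the libraries by quality, KRT3 was at -4.10.

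Within a library the corneal pair kept a narrow ratio. KRT12 held 4.19, 5.10, 3.87 and 1.90 reads per KRT3 read in SP libraries 1 to 4, against 4.2, 3.51, 2.24 and 3.50 in NSP libraries 1 to 4. The groups overlapped, although the level of each gene alone spanned 20.9-fold (KRT3) and 22.7-fold (KRT12) among the SP libraries. The mean log2 ratio was 1.82 ± 0.62 in SP and 1.71 ± 0.39 in NSP (SD, n = 4 each), a difference of 0.11 (exact permutation test over 70 splits, two-sided p = 0.714, adjusted p = 0.714 over 6 ratios). After removal of each group's mean, log2 levels of KRT3 and KRT12 had a Pearson r of 0.94 over the 8 libraries, which is a description of points that share their library and its depth. SP library 1 was highest and SP library 3 lowest among the SP libraries for both genes.

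KRT4, the type II keratin of the mucosal pair, had 697.5, 1293, 244.2 and 1211 CPM in SP libraries 1 to 4, against 2127, 1582, 1780 and 2773 CPM in NSP libraries 1 to 4. The groups did not overlap, and SP libraries 2 and 4 came nearest to the lowest NSP library. KRT4 averaged 861.2 ± 488.5 CPM in SP and 2066 ± 522.9 CPM in NSP (SD, n = 4 each). Its log2 fold change of -1.49 ± 0.48 (SE; limma-voom adjusted p = 0.0392) was the smallest of the 6 called keratins in size. That call was lost when SP library 1 was left out (adjusted p = 0.0622) and without NSP library 1, 2, 3 or 4 (limma-voom adjusted p = 0.0700, 0.0614, 0.0659 and 0.104). Without SP library 3 the value was -0.97 and still passed (limma-voom adjusted p = 0.0442).

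KRT13, the type I partner of KRT4, had 122.7, 299.3, 55.33 and 693.2 CPM in SP libraries 1 to 4, against 1091, 1465, 1255 and 1950 CPM in NSP libraries 1 to 4. All SP libraries were below all NSP libraries, with SP library 4 highest and SP library 3 lowest. KRT13 averaged 292.6 ± 286.2 CPM in SP and 1440 ± 372.9 CPM in NSP (SD, n = 4 each). Its fitted log2 fold change was -2.86 ± 0.65 (SE, limma-voom adjusted p = 0.0082). It was -2.25 without SP library 3 and -3.63 without SP library 4, past the threshold both times.

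The read ratio of KRT13 to KRT4 was 0.176, 0.232, 0.227 and 0.573 in SP libraries 1 to 4, against 0.513, 0.926, 0.705 and 0.703 in NSP libraries 1 to 4. SP libraries 1, 2 and 3 lay below all NSP libraries and SP library 4 lay above NSP library 1. The mean log2 ratio was -1.89 ± 0.75 in SP and -0.52 ± 0.35 in NSP (SD, n = 4 each). This difference of -1.37 did not pass the exact permutation test (two-sided p = 0.0571, adjusted p = 0.114 over 6 ratios). Deviations of KRT4 and KRT13 from their group means had a Pearson r of 0.87 over the 8 libraries, while r was 0.09 between KRT12 and KRT13 and 0.25 between KRT3 and KRT13. These are descriptions, and SP libraries held 95% of the squared deviation of KRT13 and 90.9% of that of KRT4.

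**Figure D2:**
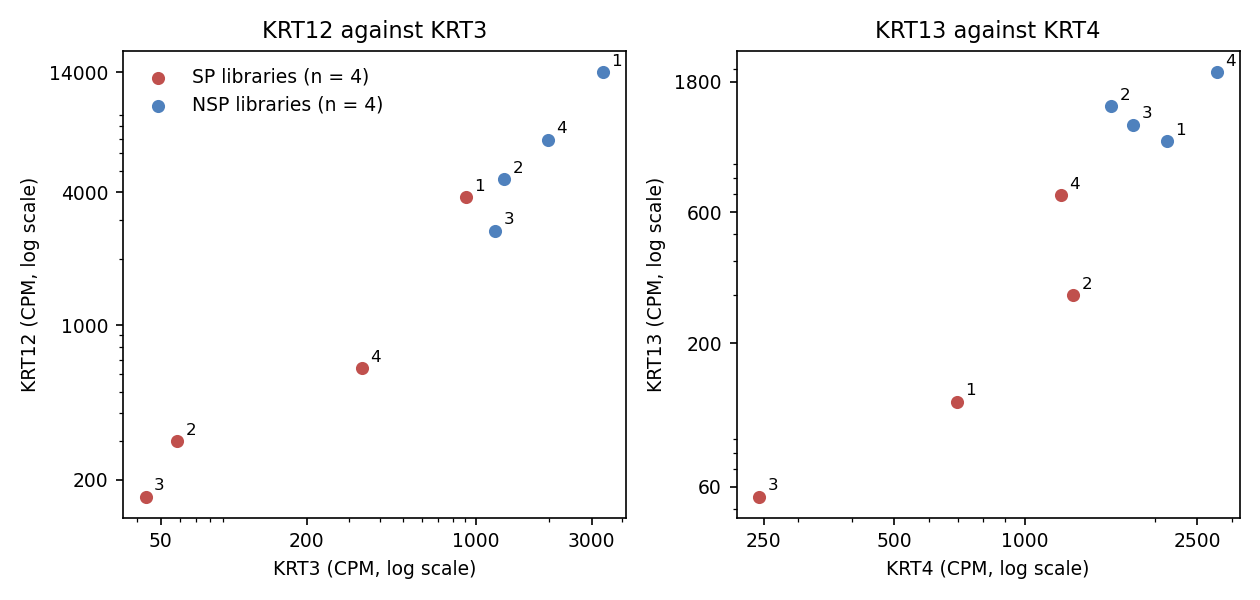
KRT12 against KRT3 (left) and KRT13 against KRT4 (right) in CPM on log axes, 1 point per library with its number, for SP and NSP libraries (n = 4 each). Points of the corneal pair lie along a line with SP library 1 near the NSP points, whereas in the mucosal pair SP library 4 comes nearest to the NSP points at 693.2 CPM of KRT13.

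KRT15, a type I keratin of basal epithelial cells often used to mark the basal layer of the limbus, was at 153.6, 45.43, 69.21 and 2030 CPM in SP libraries 1 to 4, against 14970, 17780, 11540 and 16830 CPM in NSP libraries 1 to 4. The NSP libraries lay close together and SP library 4 stood far above the other SP libraries, yet below all NSP libraries. KRT15 averaged 574.5 ± 971.2 CPM in SP and 15280 ± 2754 CPM in NSP (SD, n = 4 each). Its log2 fold change of -6.42 ± 1.02 (SE, 95% interval -8.68 to -4.17; limma-voom adjusted p = 0.0013) was the largest in size among the 8 keratins. Without SP library 4 it was -7.74 and without SP library 2 it was -5.74, with the call kept both times, and it was -7.45 when voom weighted the libraries by quality. SP libraries held 98.7% of the squared deviation of KRT15 from its group means.

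KRT17, a type I keratin known from skin appendages, basal-like cells and wounded epithelium, had 76.88, 339.4, 79.40 and 209.8 CPM in SP libraries 1 to 4, against 554.0, 733.4, 349.3 and 773.3 CPM in NSP libraries 1 to 4. No SP library reached the NSP range, though SP library 2 was within 10 CPM of NSP library 3. It averaged 176.4 ± 125.2 CPM in SP and 602.5 ± 193.9 CPM in NSP (SD, n = 4 each), with a log2 fold change of -2.0 ± 0.49 (SE; limma-voom adjusted p = 0.0112). Every fit without 1 library kept this call, with values between -2.42 and -1.69. KRT17 has close relatives in sequence, and how reads shared between near-identical keratins were counted is not given in the sources used here, so its level and those of the other keratins are uncertain to that extent.

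KRT78, a type II keratin of differentiated stratified epithelium, did not pass the test. It had 84.27, 154.4, 24.65 and 24.03 CPM in SP libraries 1 to 4, against 58.78, 8.954, 29.44 and 49.84 CPM in NSP libraries 1 to 4. The groups overlapped, with SP libraries 1 and 2 above every NSP library and SP libraries 3 and 4 among them. Its log2 fold change was 0.86 ± 0.72 (SE, 95% interval -0.73 to 2.45; limma-voom adjusted p = 0.398). KRT80, a type II keratin of differentiating epithelium, had 5.284, 15.25, 2.508 and 5.764 CPM in SP libraries 1 to 4, against 6.371, 5.243, 6.509 and 6.121 CPM in NSP libraries 1 to 4. SP library 2 was the highest of all and SP library 3 the lowest, and the 4 NSP libraries lay within 1.24-fold of each other. The log2 fold change of KRT80 was -0.04 ± 0.53 (SE, 95% interval -1.20 to 1.13; limma-voom adjusted p = 0.967), and its sign turned under several settings.

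Levels of different genes were compared as CPM per kilobase of exon, using the exon length in the table. In SP libraries the order of the group means was KRT12 at 442.5, KRT4 at 430.6, KRT15 at 333.2, KRT13 at 201.5, KRT3 at 150.8, KRT17 at 114.4, KRT78 at 42.03 and KRT80 at 2.682 CPM per kilobase. Neighbours from KRT12 down to KRT78 overlapped in their SP ranges, so that only KRT80, with at most 5.679 CPM per kilobase, lay below all SP values of its neighbour. In NSP libraries the order was KRT15 at 8863, KRT12 at 2544, KRT4 at 1033, KRT13 at 991.9, KRT3 at 876.4, KRT17 at 390.7, KRT78 at 21.51 and KRT80 at 2.257 CPM per kilobase. There KRT12, KRT4, KRT13 and KRT3 overlapped each with the next, while KRT15 was above all of them and KRT17, KRT78 and KRT80 were each below all values of the gene before.

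The 8 keratins together took 0.665%, 0.258%, 0.0679% and 0.477% of exon reads in SP libraries 1 to 4, against 3.40%, 2.82%, 1.84% and 3.09% in NSP libraries 1 to 4. All SP libraries were below all NSP libraries, and SP library 3 was lowest. The leading keratin differed between SP libraries when the 8 length-scaled levels were taken as shares of their sum. In SP library 1 KRT12 made up 57.1% and KRT3 16.9%. SP library 2 was led by KRT4 with 48.6%, followed by KRT17 with 16.6% and KRT13 with 15.5%. KRT4 also led SP library 3 with 35.2%, ahead of KRT12 with 17.4% and KRT17 with 14.8%, whereas SP library 4 was led by KRT15 with 42.1%, ahead of KRT4 with 21.7% and KRT13 with 17.1%. The NSP libraries were alike in that KRT15 led each, with 49.8%, 69.5%, 65.6% and 59.5% in NSP libraries 1 to 4. KRT12 came next in each of them, with shares of 9.49% to 29%. KRT78 made up 0.503% to 6.80% in SP libraries, against 0.0353% to 0.197% in NSP libraries.

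**Figure D3:**
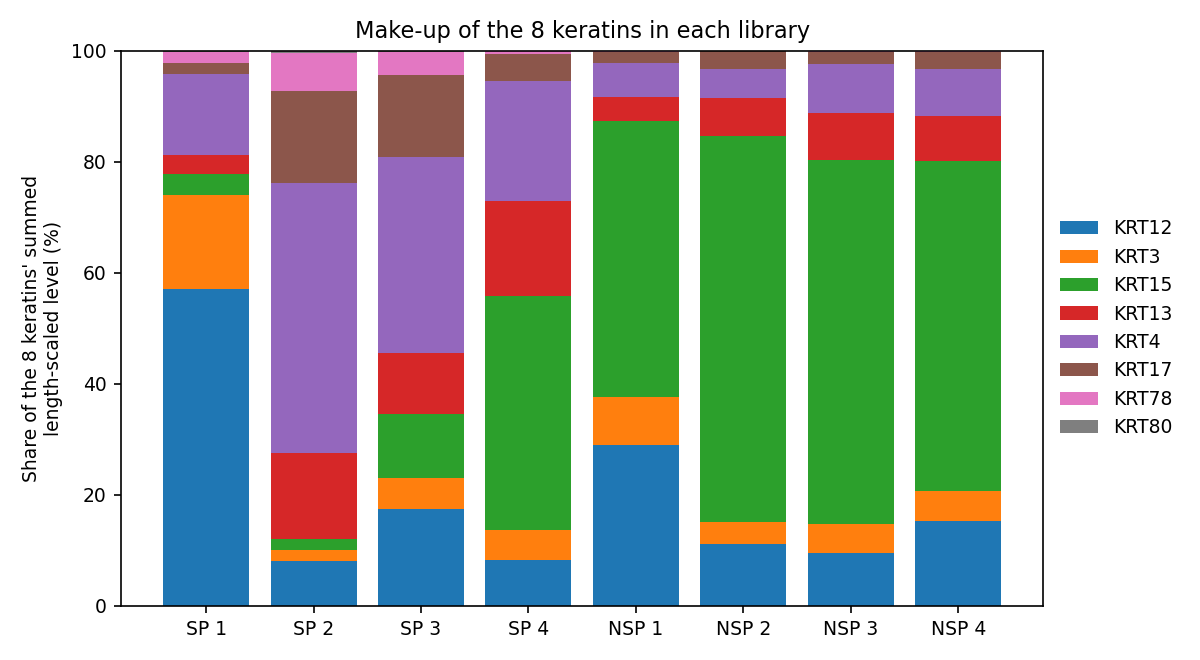
Share of each keratin in the summed length-scaled level of the 8 keratins, in percent, 1 bar per library with SP libraries left and NSP libraries right. KRT15 leads in the 4 NSP bars with 49.8% to 69.5%, while the SP bars are led by KRT12, KRT4, KRT4 and KRT15.

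Ratios of 2 keratins within a library do not depend on how library totals are scaled, and 6 such ratios of exon reads were compared. KRT17 held 0.501, 7.47, 1.15 and 0.103 reads per KRT15 read in SP libraries 1 to 4, against 0.0370, 0.0413, 0.0303 and 0.0459 in NSP libraries 1 to 4. Every SP library was above every NSP library. The mean log2 ratio was -0.29 ± 2.57 in SP and -4.71 ± 0.26 in NSP (SD, n = 4 each), a difference of 4.42 (exact permutation test, two-sided p = 0.0286, adjusted p = 0.0857). It was 3.35 without SP library 2 and 5.41 without SP library 4. KRT78 likewise stood higher against KRT12 in all SP libraries, at 0.0222, 0.517, 0.147 and 0.0375 reads per KRT12 read in SP libraries 1 to 4, against 0.0042, 0.00196, 0.0110 and 0.0072 in NSP libraries 1 to 4. This log2 ratio averaged -3.49 ± 2.04 in SP and -7.63 ± 1.07 in NSP (SD, n = 4 each), a difference of 4.14 (exact permutation test, two-sided p = 0.0286, adjusted p = 0.0857). Leaving out SP library 1 gave 4.81 and leaving out SP library 2 gave 3.30. The smallest p that 70 splits allow is 0.029, and after adjustment over the 6 ratios 0 passed 0.05 and 2 were under it before adjustment. Those 2 already stood at that smallest p, so neither could pass unless more of the 6 ratios reached it too. That 0 passed is therefore no evidence of equal ratios.

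The other ratios overlapped between the groups. KRT12 against KRT15 differed by 3.10 on the log2 scale, with 1.74 ± 2.65 in SP and -1.36 ± 0.92 in NSP (SD, n = 4 each; exact permutation test, two-sided p = 0.0857, adjusted p = 0.129). SP library 4, with 0.316 KRT12 reads per KRT15 read, lay inside the NSP range, and SP library 1 stood highest at 24.7. The difference was 2.14 without SP library 1 and 4.23 without SP library 4. KRT13 against KRT12 averaged -1.61 ± 2.36 in SP and -2.06 ± 1.12 in NSP (SD, n = 4 each), a difference of 0.45 (exact permutation test, two-sided p = 0.714, adjusted p = 0.714). That ratio was lowest in library 1 of each group, at 0.0323 in SP and 0.0778 in NSP. These libraries carry the same number only by column order.

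**Figure D4:**
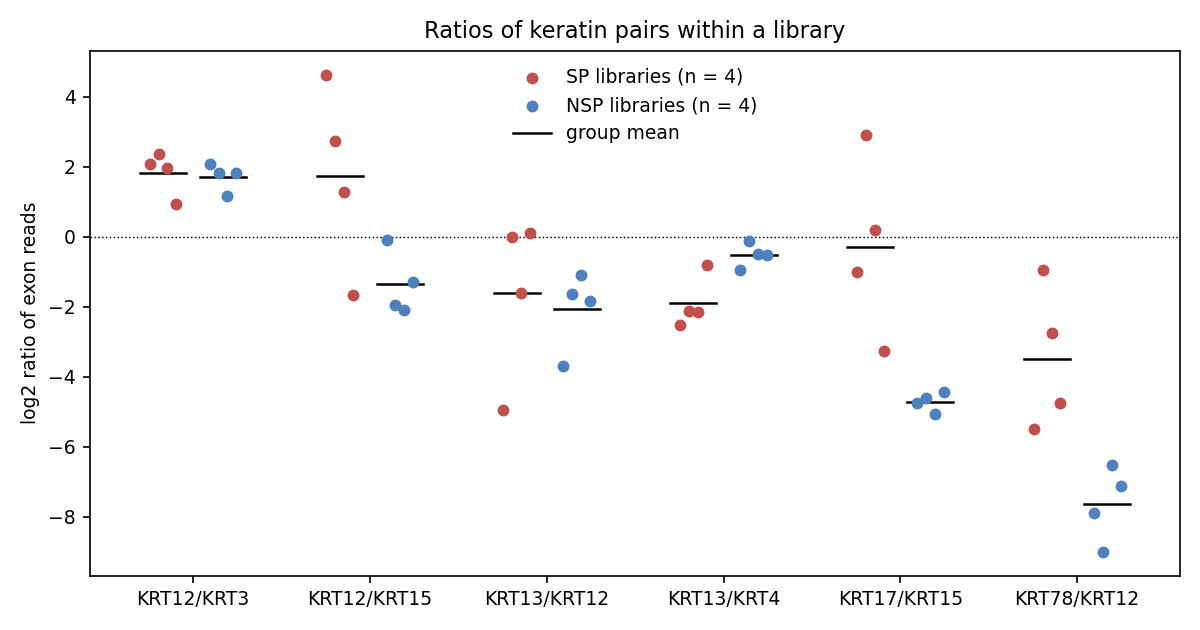
Log2 ratio of exon reads of 6 keratin pairs within each library, with SP libraries left of NSP libraries (n = 4 each) and the group mean as a line. KRT17 over KRT15 and KRT78 over KRT12 are higher in all SP than in all NSP libraries, and KRT12 over KRT3 lies at 1.82 in SP and 1.71 in NSP on average.

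RNA of other cell types moved with the groups. All tested markers of 5 other cell types were called higher in SP by limma-voom, against 17.5% of all tested genes. They were 8 of T and NK cells, 10 of endothelium, 7 of melanocytes, 7 of stroma and 7 of myeloid cells. Summed marker levels were 2115 to 8413 CPM in SP and 2.366 to 6.704 CPM in NSP for the T and NK list (8 of 13 genes had a usable name), where CD8B and CXCR6 had no NSP read. The endothelial list (10 of 12) summed to 2048 to 18640 CPM in SP and 9.112 to 15.45 CPM in NSP. For the melanocyte list (7 of 8) the sums were 2139 to 13270 CPM in SP and 149.6 to 307.4 CPM in NSP. The stromal list (8 of 11) summed to 2242 to 5311 CPM in SP and 48.95 to 75.34 CPM in NSP, with VIM alone at 2031 to 4930 CPM in SP. The SP sum of this list is thus mostly the level of 1 gene. The highest of its other genes by SP mean, DCN, averaged 111.9 CPM in SP and 38.82 CPM in NSP. COL3A1, LUM and KERA had no NSP read. KERA was not tested and reached at most 0.1551 CPM in SP. Myeloid markers (7 of 8) summed to 4136 to 9065 CPM in SP and 136.5 to 501.4 CPM in NSP, with most of the SP sum from CD74 alone at 2654 to 6644 CPM. The labelled cell type is epithelial, and the 20 pan-epithelial genes with a usable name, a list that holds no keratin, summed to 1146 to 7673 CPM in SP and 7597 to 12940 CPM in NSP. Of these genes 9 were lower in SP and 0 higher, against 13.3% lower and 17.5% higher over all tested genes. The number of lower pan-epithelial genes dropped to 5 without NSP library 4. Their part in the keratin differences was not tested, beyond the scaling on these epithelial genes that follows.

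Scaled on those 20 pan-epithelial genes in place of all genes, 3 keratins were lower in SP and 1 was higher, where 3.34% of all tested genes were lower and 38.1% higher. This scaling put the median log2 fold change of all genes at 1.41, against 0.11 with TMM factors, and the values of the 8 keratins shifted upward with it. KRT15 (-5.02, limma-voom adjusted p = 1.04e-11), KRT3 (-2.02, adjusted p = 0.0113) and KRT12 (-1.92, adjusted p = 0.0172) remained lower. KRT13 at -1.46 (limma-voom adjusted p = 0.0648), KRT17 at -0.61 (adjusted p = 0.446) and KRT4 at -0.09 (adjusted p = 0.913) no longer passed. The 95% interval for KRT4 was -1.41 to 1.23. KRT78 was higher in SP on this scale, with 2.22 ± 0.70 (SE; limma-voom adjusted p = 0.00698) against that median of 1.41, and KRT80 stood at 1.34 (adjusted p = 0.178). The SE under this scaling was 0.68 for KRT15, 0.67 for KRT3 and 0.67 for KRT4, against 1.02, 0.87 and 0.48 with TMM factors. Keratins of unlike scatter thus had nearly the same SE. The p-values under this scaling rest largely on a spread pooled over genes, and that of KRT15 does not measure its own scatter.

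The summed CPM of the 8 keratins was 1.11, 0.326, 0.599 and 1.67 times that of the pan-epithelial genes in SP libraries 1 to 4, against 2.79, 2.88, 2.48 and 2.82 times in NSP libraries 1 to 4. All SP libraries were below all NSP libraries in this ratio. SP library 2, which had the highest pan-epithelial sum of the SP libraries at 7673 CPM, had the lowest keratin sum relative to it.

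**Figure D5:**
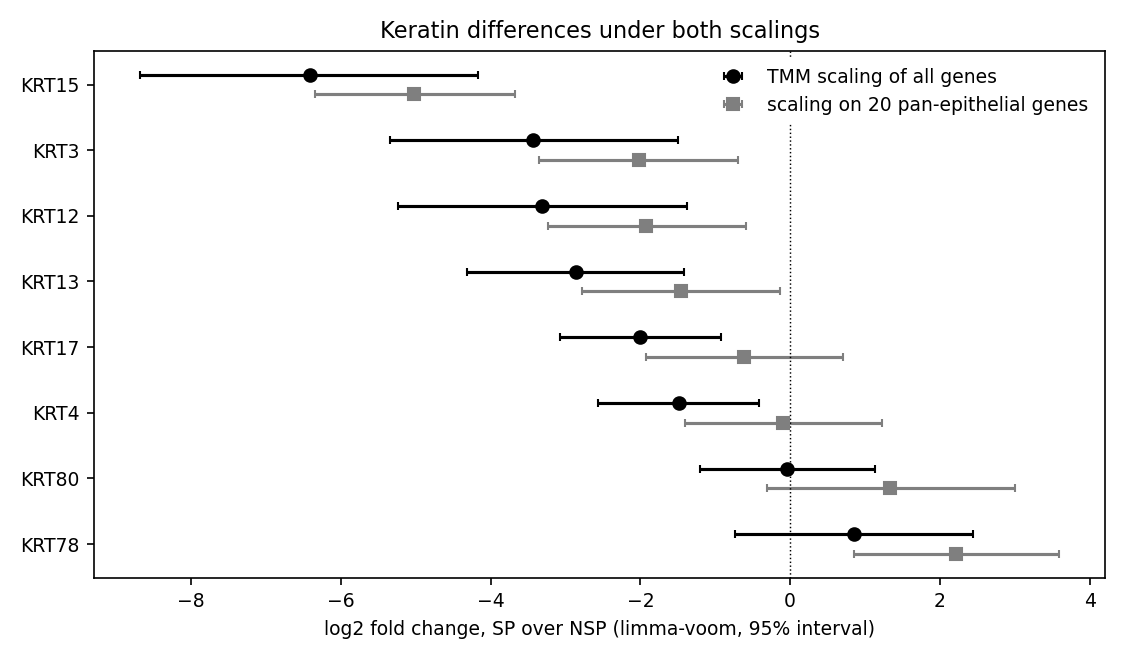
Log2 fold change of each keratin, SP over NSP, with its 95% interval from limma-voom (4 SP and 4 NSP libraries), under TMM scaling of all genes (black) and under scaling on 20 pan-epithelial genes (grey). The intervals of KRT15, KRT3, KRT12 and KRT13 lie below 0 under both scalings, that of KRT13 with an adjusted p of 0.0648 under the epithelial one, and the interval of KRT78 lies above 0 under the epithelial scaling alone.

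Among the 29 other keratins, 18 were tested, of which 10 were lower in SP and 1 was higher, with a median log2 fold change of -2.52, against 13.3% lower and 17.5% higher and a median of 0.11 over all tested genes. Several of the lower ones had low levels, with NSP means between 1.003 and 17.6 CPM. The count and the median thus rest in part on weakly read genes. The 5 with the highest mean level were KRT8, KRT19, KRT10, KRT18 and KRT7. KRT10, a type I keratin of cornified epidermis, averaged 46.71 ± 24.92 CPM in SP and 644.6 ± 171.9 CPM in NSP (SD, n = 4 each). Its fitted log2 fold change was -3.96 ± 0.42 (SE, limma-voom adjusted p = 0.000214). The other four are keratins of simple epithelium. KRT18 averaged 308.4 ± 217.8 CPM in SP and 100.5 ± 17.41 CPM in NSP (SD, n = 4 each). Its fitted log2 fold change was 1.37 ± 0.43 (SE, limma-voom adjusted p = 0.0338). Its call was lost with upper-quartile factors (adjusted p = 0.0593) and without any single library except SP library 3, with limma-voom adjusted p up to 0.125 without NSP library 1. KRT8 (-0.31, limma-voom adjusted p = 0.607), KRT19 (0.70, adjusted p = 0.35) and KRT7 (0.05, adjusted p = 0.96) did not pass. With scaling on the pan-epithelial genes 6 of the other keratins were lower and 2 higher, against 3.34% lower and 38.1% higher over all tested genes. On that scale KRT19 was at 2.09 (limma-voom adjusted p = 0.008), KRT18 at 2.77 (adjusted p = 0.000321) and KRT10 at -2.58 (adjusted p = 0.00124).

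Genes that anchor or bind keratin filaments were mostly lower as well. Of 23 listed partners 13 had a usable name, and 11 of these were lower in SP and 0 higher, with a median log2 fold change of -2.47, against 13.3% lower, 17.5% higher and a median of 0.11 over all tested genes. COL17A1, the hemidesmosomal collagen, had a log2 fold change of -6.41 ± 0.80 (SE; limma-voom adjusted p = 0.000387). DSG3, a desmosomal cadherin of basal layers, had -4.12 ± 0.66 (SE; limma-voom adjusted p = 0.00136), and SFN, the epithelial 14-3-3 protein sigma, had -3.47 ± 0.59 (SE; adjusted p = 0.00177). Without SP library 3 these values were -5.59, -3.44 and -2.78, and without SP library 4 COL17A1 was at -7.22 and DSG3 at -4.80. With quality weights COL17A1 was at -7.02. PKP2 at 0.36 and TRADD at 0.18 did not pass. With scaling on the pan-epithelial genes 4 partners were lower and 1 was higher, against 3.34% lower and 38.1% higher over all tested genes.

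Of 28 listed regulators of stratified epithelium 21 had a usable name and 20 were tested, of which 7 were lower in SP and 0 higher, with a median log2 fold change of -1.47. Over all tested genes 13.3% were lower and 17.5% higher. With scaling on the pan-epithelial genes 4 regulators were lower and 1 was higher, where 3.34% of all tested genes were lower and 38.1% higher. TP63, the master transcription factor of stratified epithelium, had -5.43 ± 0.75 (SE; limma-voom adjusted p = 0.000648), and values of -6.13, -4.83, -4.72 and -6.14 without SP library 1, 2, 3 and 4. With quality weights it was at -6.03. DLX3, a homeobox factor of differentiating epidermis, lay between 0 and 0.2083 CPM in SP and between 8.889 and 17.40 CPM in NSP. Its fitted value depends on the added count, at -7.74 with limma-voom (adjusted p = 0.000356) and -4.59 with limma-trend, and it was -8.56 with limma-voom without SP library 4. Among the pan-epithelial genes, PRRG4 (-2.41), ESRP1 (-2.17) and EPCAM (-2.28) had the smallest limma-voom adjusted p, at 0.00458, 0.00496 and 0.0112. Without SP library 3, PRRG4 was at -1.76 and EPCAM at -1.66. PERP and ELF3 each stand in 2 of these lists.

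How the keratins varied among libraries of a group was described by Pearson r of the deviations from the group means of log2 CPM over the 8 libraries, of which the SP libraries held 55.0% (KRT78) to 98.7% (KRT15) of the squared deviation. Besides the corneal and the mucosal pair, KRT4 and KRT80 (r = 0.82), KRT13 and KRT17 (0.74) and KRT4 and KRT17 (0.73) varied most alike. KRT15 was nearest to KRT13 (0.67) and KRT3 (0.54), and it ran against KRT78 (-0.45). The genes most like each keratin were sought among 3122 named genes with a mean of at least 50 CPM. KRT3 and KRT12 shared ANO10 (0.98 and 0.97) and CRTAC1 (0.98 and 0.96) among their nearest genes, with ARHGEF11 (0.99) nearest to KRT3 and PPM1J (0.96) also near KRT12. The nearest genes were TARS2 for KRT13 (0.99), RNF41 for KRT4 (0.97), MAP3K4 for KRT15 (0.99), MAPKAPK3 for KRT17 (0.96), MFSD5 for KRT78 (0.99) and RELL1 for KRT80 (0.99). These coefficients rest on 8 libraries that share depth and cell mixture, and the highest of 3122 coefficients is high for each of the 8 keratins.

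By symbol, 6 of the 8 keratins matched a gene list of RefSeq (assembly mOryCun1.1), from which only names and neighbours were taken. The type II genes KRT3, KRT4, KRT78 and KRT80 share a chromosome, with KRT4 next to KRT3 and KRT79 between KRT4 and KRT78, and the type I genes KRT12 and KRT13 share another. KRT3 and KRT4 are thus neighbours, with log2 fold changes of -3.43 and -1.49 and a Pearson r of 0.37 between their deviations.

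The authors' deposited table gives an EDGE test with the fold as NSP over SP, so that its positive values mean lower in SP. For KRT15 the authors' deposited table lists a fold of 27.0 (corrected p = 3.36e-05), for KRT12 6.26 (corrected p = 0.00883) and for KRT3 6.25 (corrected p = 0.00492). Its folds for KRT13, KRT17 and KRT4 in the authors' deposited table are 5.12, 3.67 and 2.56, with corrected p of 0.00123, 0.00207 and 0.0341. KRT78 at -1.78 (corrected p = 0.587) and KRT80 at -1.10 (corrected p = 1) did not pass in the authors' deposited table, where a negative fold means lower in NSP. These linear folds are a different measure from the limma-voom log2 fold changes. The latter correspond to 85.7-fold for KRT15, 9.92-fold for KRT12 and 10.8-fold for KRT3, each larger than the EDGE fold.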

How the data were processed

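Libraries of total RNA (4 SP, 4 NSP) were read on an Ion Proton, per the labels. The sources used here name no aligner, counter, genome build or annotation. All values come from 1 deposited table of 8-character fields that touch (163 fields, 6 stacked blocks), read here by character position. Per-library headers are truncated and show only the group. The fields used hold whole numbers for every gene and were taken as unscaled exon read counts: the deposited group means were recomputed from them with a largest difference of 0.05. A second deposited field gives exon length, and the EDGE folds, p-values and corrected p-values are the authors', per the file headers. A further 143 per-library fields were left aside. Of 20922 entries, 10006 had a truncated or numbered name and stayed in totals and tests unnamed (10.1% of reads).

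Library totals were scaled by TMM (trims of 30% and 5%). A gene was tested if its CPM reached 0.508, equal to 10 reads in a library of median size, in 4 libraries, or in 3 when a library was left out, and if it had 15 reads in all. That lower number was chosen after the data were seen. Groups were compared with limma-voom (limma 3.58.1, R 4.3.3; count offset 0.5; group only; two-sided; Benjamini-Hochberg over all genes at 0.05). The code was tried on simulated counts with the same scatter for all genes and both groups. That trial does not cover the wider scatter that most keratins had among SP libraries. edgeR was not used here, because the touching fields leave no count column for a reading by columns, although the recovered counts could be given to it. Ratios had 0.5 added to each count and were tested by exact permutation over 70 splits. Python 3.11.15, pandas 2.3.3, NumPy 2.4.6, SciPy 1.17.1 and matplotlib 3.10.9 were used. Depth was 15553295 to 23529101 exon reads per library. The 95% intervals are those of the limma-voom log2 fold change, based on the scatter between libraries as moderated over genes, and are not the range of library values. Under epithelial gene scaling the intervals rest largely on a spread pooled over genes.

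The keratins and lists were chosen with earlier results of these data known. Named are all 8 keratins, the 5 other keratins highest by mean CPM, from the lists of partners, regulators and pan-epithelial genes up to 3 genes in each direction by smallest p (markers of other cell types are given as sums, with a few single values), and the genes most like each keratin. A gene that this rule names is not reported here, and it stayed in all tests and counts. Alternatives were other scalings, filters and voom weights, limma-trend, another ratio offset and leaving out each library.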

Additional observations from a re-analysis of the deposited data

Results flagged for a closer look

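In 28 groups of 4 values (8 keratins and 6 ratios in each group), 2 had a library far from the other libraries of its group. Chance gives about 1 in 20, so 2 of 28 is near that share. KRT12 stood at 3798 CPM in SP library 1, and the gap to the next SP library was 0.869 of the group's range, above Dixon's critical value for 4 samples. KRT15 stood at 2030 CPM in SP library 4, with a gap of 0.945 of the range. Each stood below the mean of the NSP libraries. Both gaps were taken on CPM, and on the log2 scale of the fits they are smaller parts of the range.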

How the results depend on the processing

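KRT3, KRT12 and KRT15 kept their direction and call under all 7 other settings and in the 8 fits without 1 library. Under epithelial gene scaling 3 keratins were called lower and 1 higher. Without 1 library 5 to 6 keratins were lower and 0 higher, and 0 ratios passed. KRT80 turned to 1.34 (epithelial gene scaling) and 0.31 (quality weights), and to between -0.53 and 0.39 without 1 library. KRT7 was -0.06 with median-ratio and -0.14 with upper-quartile factors, and -0.59 to 0.58 without 1 library. KRT8 was 1.08 with epithelial gene scaling and -0.70 to 0.09 without 1 library. Differences of log2 ratios ranged without 1 library from -0.07 to 0.41 for KRT12/KRT3 and from -0.12 to 1.57 for KRT13/KRT12. The cause was not tested. Counts of all genes lower and higher in SP were 334 and 3809 under epithelial gene scaling and 1586 and 2341 with quality weights, against 1330 and 1754. With 1 library left out no ratio can pass, since 35 splits give a smallest p of 0.057. edgeR's quasi-likelihood test was not run. No paired analysis was possible because the columns carry no replicate number. With 4 libraries per group, the intervals of KRT78 and KRT80 leave room for changes in either direction.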
